A study of Mus musculus with 7 samples.

Results

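The genes described here are 10 genes of serine synthesis, folate-bound one-carbon transfer, asparagine synthesis and glutamine uptake in mouse pancreatic islets: Phgdh, Psat1, Psph, Shmt1, Shmt2, Mthfd1, Mthfd2, Aldh1l2, Asns and Slc1a5. They were chosen by pathway, with the differences between the libraries already known, so every difference given for them is a description of values that had been seen. All 10 were found among the 21899 genes of the files by their Ensembl identifiers, named with GENCODE M21, and all 10 averaged 10 counts or more over both libraries, a minimum that 13627 genes passed.

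The islets came from second-generation (F2) males on the C57BL/6 J background. In the AE group the founder dams had been injected with dihydrotestosterone late in pregnancy, and in the control group with the vehicle of benzyl benzoate and corn oil. Their sons (F1), not exposed again, were mated with wild-type females to give the F2 males, so that neither group of F2 animals had been injected itself, and the age of these F2 males and the number of animals behind a library are not given in the sources used here. The islets had been freed with collagenase, picked by hand and cultured, and the labels name 3 control-F2 and 4 AE-F2 samples. The labels call the groups control and hyperandrogenism. Of these samples, replicate 1 of control-F2 and replicate 4 of AE-F2 were analysed here, 1 library each, and the other 5 were not. With 1 library per group there was no replicate error, no test was possible and no p-value is given. A difference between these libraries therefore cannot be told apart from a difference between animals or islet preparations.

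Serine is made from the glycolytic intermediate 3-phosphoglycerate by PHGDH, PSAT1 and PSPH in turn. Serine hydroxymethyltransferases then pass a carbon unit from serine to folate, SHMT1 in the cytosol and SHMT2 in mitochondria, and the folate-bound units feed purine, thymidylate and methionine metabolism. Many of these genes, with Asns, are targets of ATF4, a transcription factor whose translation rises when amino acids run short or the endoplasmic reticulum is stressed. Islet β-cells and the acinar cells around them both make large amounts of secreted protein, which ties them closely to amino acid supply.

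The depth was 16285888 estimated counts in control-F2 and 21278513 in AE-F2 islets. Levels are given as CPM, in which both libraries are brought to the same total by TMM factors (a trimmed mean of gene-wise ratios), and log2 ratios set AE-F2 over control-F2 after adding 0.5 counts. The interval beside a ratio is a 95% Clopper-Pearson interval from the counts of both libraries. It covers counting error only, with each count taken as an independent molecule. As PCR copies are not independent, it can be too narrow even for that. It holds no spread between animals, which were not replicated. Ins1 and Ins2 together took 17.7% of the control-F2 and 17.5% of the AE-F2 counts, and the median log2 ratio of all 13627 genes was 0.00.

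Of the 10 genes, 7 were at least 1.2-fold lower in the AE-F2 library, against 9.44% of all genes that passed the minimum. Slc1a5 was the 1 gene at least 1.2-fold higher, where 14.0% of all genes were, and it was also past 2-fold, as were 3.20% of all genes. Where the mean was 100 counts or more, and counting error smaller, 6.41% of genes were at least 1.2-fold lower and 5.75% at least 1.2-fold higher. All 7 lower genes are in that range of counts. The median log2 ratio of the 10 genes was -0.42. In bulk samples such as these, fewer cells of a type and less RNA per cell cannot be told apart.

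The promoters are shown first, because the genes that were lower include well-known ATF4 targets. Whether ATF4 has a part in the differences was not tested. RefSeq promoter windows on GRCm38.p6, from 250 bases before to 50 after a gene's start, were held for 8 of the 10 genes, with 9 windows. They were searched on both strands for TGATGNAA, the core of the C/EBP-ATF response element that ATF4 reads, and for CACGTG, the E-box. The first was found in 3.97% of all 32851 windows and the second in 7.15%. Among the 10 genes the ATF4 core was found in the Asns window, 23 bases before the start, and CACGTG in none. The 200 bases before the start of Phgdh, the lowest of the 10 in ratio, and of Asns, the gene with the match, are given 5′ to 3′ on the minus strand on which both genes lie, with the match in capitals. The Phgdh stretch is chr3:98339970-98340169 and the Asns stretch chr6:7693210-7693409.

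Phgdh: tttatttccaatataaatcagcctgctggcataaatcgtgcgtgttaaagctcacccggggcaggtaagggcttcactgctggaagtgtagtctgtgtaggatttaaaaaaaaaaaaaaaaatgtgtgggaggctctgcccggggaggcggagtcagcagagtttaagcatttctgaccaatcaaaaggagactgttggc
Asns: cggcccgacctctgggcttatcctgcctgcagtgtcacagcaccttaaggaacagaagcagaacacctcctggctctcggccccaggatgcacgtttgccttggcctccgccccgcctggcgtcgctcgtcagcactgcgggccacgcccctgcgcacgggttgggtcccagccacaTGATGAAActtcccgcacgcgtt

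The Phgdh stretch is 45.5% G and C and the Asns stretch 65.5%. No match in the Phgdh window says only that these letters are not in it.

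The 3 genes of serine synthesis were all lower in the AE-F2 library. Phgdh (ENSMUSG00000053398) encodes phosphoglycerate dehydrogenase, the first and committed enzyme. It had 839 counts in control-F2 and 611 in AE-F2 islets, although the AE-F2 library was the deeper. Its levels were thus 51.5 and 28.8 CPM, for a log2 ratio of -0.84 (interval -0.99 to -0.69). At 1.79-fold lower, Phgdh had the lowest ratio of the 10 genes.

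Psat1 (ENSMUSG00000024640), the aminotransferase of the next step, had 247 and 235 counts in the control-F2 and AE-F2 libraries, or 15.2 and 11.1 CPM. Its log2 ratio was -0.45 (interval -0.72 to -0.19). Psph (ENSMUSG00000029446), the phosphatase that releases serine, had 145 and 125 counts, or 8.89 and 5.88 CPM. Its log2 ratio was -0.59 (interval -0.95 to -0.24). As a sum the 3 genes went from 75.5 to 45.7 CPM, a log2 ratio of -0.72 (interval -0.85 to -0.60).

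The 3 mitochondrial folate enzymes were lower as well. Shmt2 (ENSMUSG00000025403), which takes the carbon unit from serine inside mitochondria, had 424 and 446 counts in the control-F2 and AE-F2 libraries. At 26.0 and 21.0 CPM, its log2 ratio of -0.31 (-0.50 to -0.11) was the smallest among the 7 lower genes. Mthfd2 (ENSMUSG00000005667) encodes the mitochondrial dehydrogenase and cyclohydrolase that oxidises the folate-bound unit. It had 920 and 758 counts, or 56.4 and 35.7 CPM, for a log2 ratio of -0.66 (-0.80 to -0.52). Aldh1l2 (ENSMUSG00000020256), which oxidises mitochondrial formyl-folate to carbon dioxide and yields NADPH, had 1576 and 1358 counts. Its 96.6 and 63.9 CPM gave a log2 ratio of -0.60 (-0.70 to -0.49). The interval of Shmt2 lay above that of Mthfd2 and met that of Aldh1l2 only at its edge.

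Of the cytosolic folate enzymes, Mthfd1 was near equality and Shmt1 was too low to read. Mthfd1 (ENSMUSG00000021048), a trifunctional enzyme that interconverts folate-bound units in the cytosol, had 2017 counts in control-F2 and 2652 in AE-F2 islets. On the CPM scale the levels were 124 and 125, a log2 ratio of 0.01 with a narrow interval from -0.07 to 0.10. Shmt1 (ENSMUSG00000020534), the cytosolic counterpart of Shmt2, was barely expressed in both libraries, with 19 and 29 counts or 1.17 and 1.36 CPM. Its log2 ratio of 0.22 had an interval from -0.66 to 1.14, so that this depth could not show a difference. Summed, the cytosolic pair went from 124.8 to 126.2 CPM (log2 ratio 0.02, interval -0.07 to 0.10), whereas Shmt2, Mthfd2 and Aldh1l2 together went from 179.1 to 120.6 CPM (log2 ratio -0.57, interval -0.65 to -0.49). Other folate enzymes did not divide by compartment, Mthfd2l and Aldh1l1 among them being named after their values were seen. Mthfd1l, which releases formate from mitochondria, was at 0.16 (0.01 to 0.32) and mitochondrial Mthfd2l at 0.08 (-0.24 to 0.41), whereas cytosolic Aldh1l1, the counterpart of Aldh1l2, had 33 counts in control-F2 and 11 in AE-F2 islets and a log2 ratio of -1.91 (-3.10 to -0.95).

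**Figure D1:**
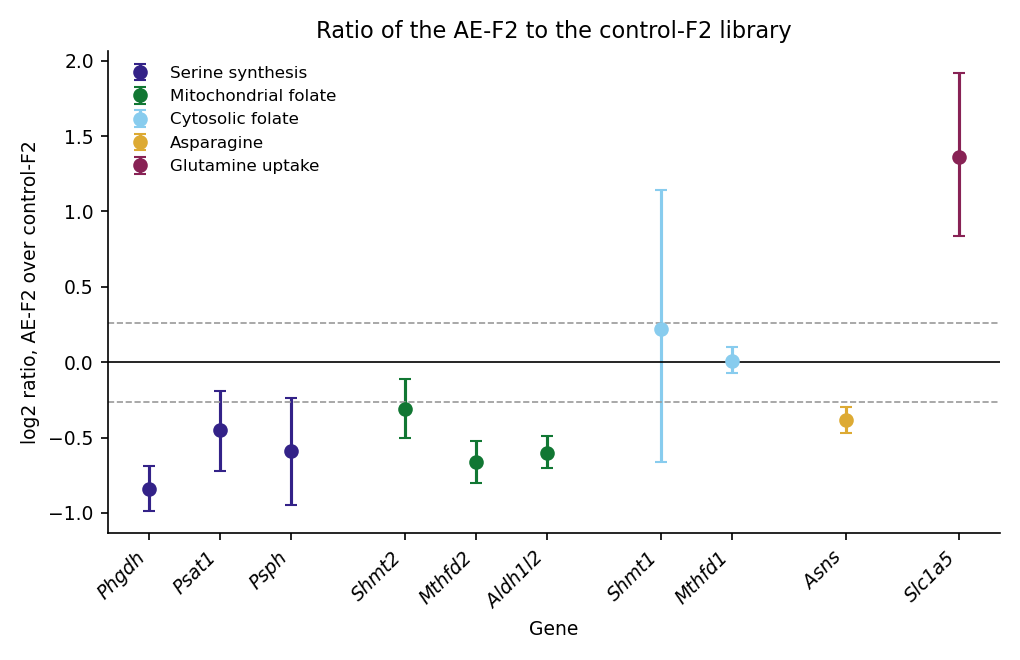
AE-F2 over control-F2 ratios on the log2 scale for each of the 10 genes, grouped by role, with the 95% counting interval as the bar and dashed lines at 1.2-fold in each direction. The serine synthesis genes, the mitochondrial folate genes and Asns lie between -0.84 and -0.31, Mthfd1 lies at 0.01 and Slc1a5 at 1.36.

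Asns (ENSMUSG00000029752) encodes asparagine synthetase, which makes asparagine from aspartate with glutamine as the nitrogen donor. It had 2242 counts in control-F2 and 2239 in AE-F2 islets. As the AE-F2 library was 1.31-fold deeper, these nearly equal counts were 138 and 105 CPM, a log2 ratio of -0.38 (-0.47 to -0.30). The intervals of Phgdh, Mthfd2 and Aldh1l2 lie wholly below that of Asns.

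Slc1a5 (ENSMUSG00000001918) encodes ASCT2, a transporter of glutamine and other small neutral amino acids, and went in the opposite direction. It had 39 counts in control-F2 and 131 in AE-F2 islets, or 2.39 and 6.17 CPM, which was 2.56-fold higher and a log2 ratio of 1.36 (interval 0.84 to 1.92). Lymphocyte, mesenchyme and proliferation genes were higher beside it. The 12 genes listed for B cells and plasma cells were all at least 1.2-fold higher in AE-F2 islets (14.0% of all genes), 10 of them at least 2-fold (3.20%). Together they went from 18.6 to 407 CPM, with 7 of them at or below 3 counts in control-F2 and none in AE-F2 islets. Those 7 passed the minimum only through their AE-F2 counts, so that a rise in them was fixed by passing. The 8 T cell genes went from 1.35 to 10.3 CPM as a sum, and Cd3e, Cd3d and Cd3g, which encode parts of the T cell receptor complex and were singled out for their values, had 0 counts in control-F2 and 10, 5 and 10 in AE-F2 islets. Of 10 mesenchyme genes 9 were higher, 6 by at least 1.2-fold (14.0% of all genes) and 4 by at least 2-fold (3.20%), with a median log2 ratio of 0.97 that was 0.57 where only genes averaging 100 counts or more were kept, and none was at 0 in either library. Their sum went from 331.8 to 399.7 CPM. The proliferation list had a median log2 ratio of 0.63 with 11 of 11 measured genes higher, 8 of them by at least 1.2-fold (14.0% of all genes). The part of these genes and cells in the Slc1a5 value was not tested.

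The order of the levels was compared per kilobase of exon, the scale on which genes of unlike length can be set side by side. In the control-F2 library the order was Asns at 50.3 CPM per kb, Mthfd1 at 27.8, Phgdh at 20.7, Mthfd2 at 16.2, Aldh1l2 at 12.9, Shmt2 at 8.36, Psat1 at 3.56, Psph at 2.05, Slc1a5 at 0.573 and Shmt1 at 0.30. Each neighbour in this order differed by more than counting error, the least certain being Slc1a5 and Shmt1, whose levels had a ratio of 1.91 (interval 1.08 to 3.50). Among the genes that passed the minimum, Asns stood at percentile 95.7 and Shmt1 at percentile 8.4 of the level per kb.

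In the AE-F2 library the order per kb was Asns at 38.5, Mthfd1 at 28.1, Phgdh at 11.6, Mthfd2 at 10.2, Aldh1l2 at 8.52, Shmt2 at 6.75, Psat1 at 2.60, Slc1a5 at 1.48, Psph at 1.36 and Shmt1 at 0.352. The order differed from that of control-F2 in 1 place, Slc1a5 standing above Psph, and these neighbours did not differ beyond counting error (ratio 1.09, interval 0.84 to 1.40). The ratio of Phgdh to Mthfd2 was 1.13 (1.01 to 1.26) against 1.28 (1.16 to 1.41) in the control-F2 library, intervals that overlap. Phgdh stood at percentile 87.1 of the genes past the minimum in control-F2 and 75.7 in AE-F2, Mthfd2 at 82.9 and 72.6, Aldh1l2 at 77.8 and 67.7, and Mthfd1 at 90.8 and 90.9.

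**Figure D2:**
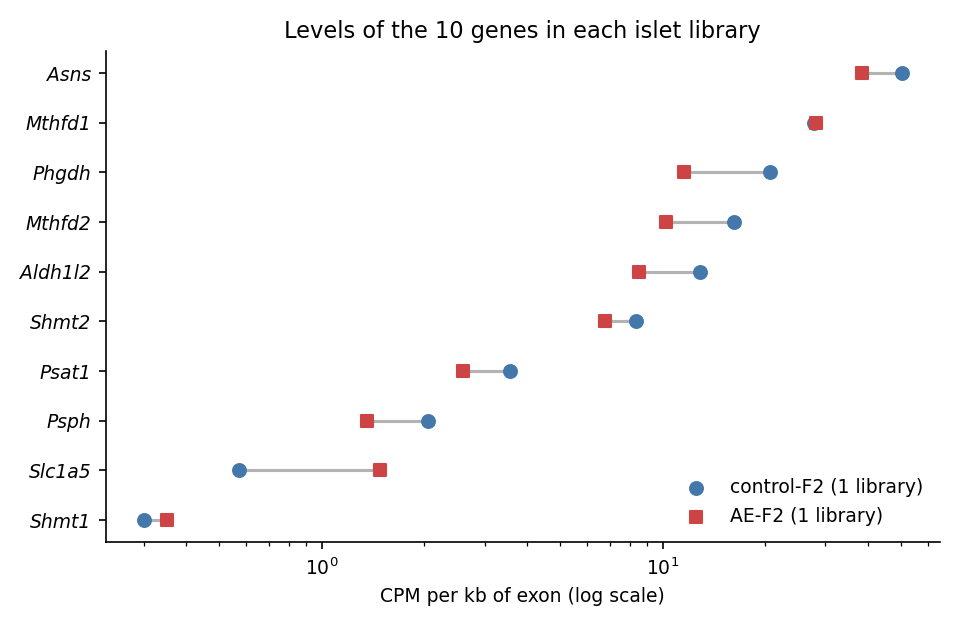
CPM per kb of exon, on a log axis, of each of the 10 genes in the control-F2 library (circle) and the AE-F2 library (square), ordered by the control-F2 level. The squares lie to the left of the circles for 7 genes, cover the circle for Mthfd1 and lie to the right for Shmt1 and Slc1a5.

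Ratios between genes of the same library do not depend on how the libraries are scaled to each other. Per kb, Phgdh stood at 0.743 of the Mthfd1 level in the control-F2 library and at 0.412 in the AE-F2 library. Mthfd2 stood at 0.581 and 0.364 of Mthfd1, and Aldh1l2 at 0.463 and 0.303. Within serine synthesis, Phgdh exceeded Psat1 5.81-fold in the control-F2 library and 4.45-fold in the AE-F2 library. Mitochondrial Shmt2 exceeded cytosolic Shmt1 27.9-fold and 19.2-fold, although the low counts of Shmt1 leave this ratio imprecise. Asns stood at 2.43 times Phgdh in the control-F2 library and 3.33 times in the AE-F2 library.

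Some of the counts could be shared with overlapping genes. The kit named in the methods, NEBNext Ultra RNA, does not mark strand, so reads of genes that overlap on opposite strands could not be told apart by strand. Exons of Aldh1l2 share 1056 bases with those of D10Wsu102e on the opposite strand in GENCODE M21, and exons of Psph share 452 bases with those of Cct6a. Shorter overlaps on the opposite strand were those of Shmt1 with Smcr8 (184 bases), Mthfd1 with Gm47525 (37 bases) and Shmt2 with Ndufa4l2 (32 bases). Smcr8 had 904 and 1082 counts, far above the 19 and 29 of Shmt1. The deposited values of Aldh1l2 (1575.59 and 1358.39) and Psph (144.51 and 124.91) were not whole numbers, and those of the other 8 genes were whole. The overlapping partners with counts had intervals that included equality, with a log2 ratio of -0.02 (-0.09 to 0.05) for D10Wsu102e, 0.05 (-0.03 to 0.13) for Cct6a, -0.12 (-0.25 to 0.01) for Smcr8 and -0.18 (-0.65 to 0.30) for Ndufa4l2. Transcript GC content ran from 47.7% to 57.4% over the 10 genes.

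**Figure D3:**
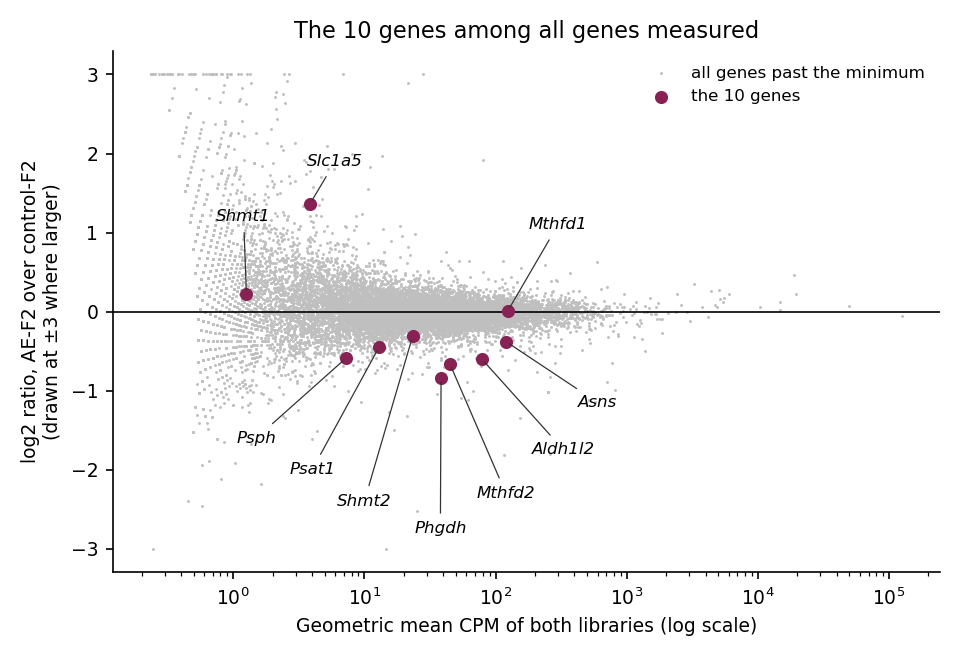
Ratios of AE-F2 over control-F2 (log2) against the geometric mean CPM of both libraries, on a log axis, for genes past the minimum with counts in both libraries (grey) and for the 10 genes (dark). Ratios beyond 3 or -3 are drawn at that limit, and genes with 0 counts in a library are not drawn. Grey points spread more widely at low levels, and Phgdh, Mthfd2 and Aldh1l2 lie below 0 at -0.84, -0.66 and -0.60.

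Many genes of the wider ATF4 pathway were lower in AE-F2 islets, as the serine genes were. Of 20 regulators and targets on this list, 17 passed the minimum, 10 were at least 1.2-fold lower, against 9.44% of all genes, and none was at least 1.2-fold higher, against 14.0%, with a median log2 ratio of -0.34. Atf4 itself, which is controlled mainly at translation, went from 281 to 226 CPM (log2 ratio -0.32, interval -0.37 to -0.26). Atf5, a related factor, went from 175 to 115 CPM (-0.61, interval -0.69 to -0.53). Ppp1r15a, which encodes the GADD34 subunit that reverses eIF2α phosphorylation, went from 161 to 96.7 CPM (-0.74, interval -0.82 to -0.65). These are RNA levels, not ATF4 activity, and the part of ATF4 in the values of the 10 genes was not tested.

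Further targets, named because they were past 1.5-fold, were also lower. Ddit4, an inhibitor of mTORC1, had a log2 ratio of -0.71. Chac1, which degrades glutathione, was also at -0.71, Nupr1 at -0.59, and Eif4ebp1, which encodes a repressor of cap-dependent translation, at -0.74. Others on the list differed less, such as Sesn2 at -0.12 and Cebpg at -0.15, both singled out after their values were seen. The intervals of the 4 kinases that phosphorylate eIF2α upstream of ATF4 included equality. Eif2ak3, which encodes PERK, had a log2 ratio of -0.03 (interval -0.13 to 0.07). The other 3 are named after their values were seen, with Eif2ak4, which encodes GCN2, at 0.02 (-0.17 to 0.20), Eif2ak1 at 0.04 (-0.09 to 0.16) and Eif2ak2 at 0.18 (-0.02 to 0.39).

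Promoter matches to TGATGNAA were found for 5 of the 19 ATF4 pathway genes with a window and for 5 of the 13 aminoacyl-tRNA synthetase genes with one, against 1219 of all 27025 genes. CACGTG was found for 3 and 4 of these genes, against 2187 of all 27025. Examples that lie before the start, in genes that passed the minimum, are set beside that of Asns to show how the element recurs, 12 bases on each side (cut at the start site for Tars), 5′ to 3′ on the strand of each gene, with the match in capitals. TTGCATCA and TTTCATCA are the core read on the other strand. They lie at chr6:7693213-7693244 (Asns, minus), chr2:119351037-119351068 (Chac1, plus), chr7:126625561-126625592 (Nupr1, minus), chr19:27216808-27216839 (Vldlr, plus), chr6:55037959-55037990 (Gars, plus) and chr15:11399659-11399685 (Tars, minus).

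Asns: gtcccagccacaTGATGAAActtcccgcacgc
Chac1: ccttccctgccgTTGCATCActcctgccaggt
Nupr1: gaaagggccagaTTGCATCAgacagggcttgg
Vldlr: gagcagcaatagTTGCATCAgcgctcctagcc
Gars: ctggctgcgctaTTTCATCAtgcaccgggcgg
Tars: ccaggagtcccgTTGCATCAgctggtt

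The genes that carry these stretches did not share 1 ratio. Chac1 and Nupr1 were at -0.71 and -0.59, Asns at -0.38 and Gars at -0.10. Vldlr and Tars, named for the match, were at -0.15 and -0.04.

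The cytosolic aminoacyl-tRNA synthetases, which charge tRNAs with amino acids, differed less. All 20 passed the minimum, 4 were at least 1.2-fold lower (9.44% of all genes) and none at least 1.2-fold higher (14.0% of all genes), and their median log2 ratio was -0.05. Of the most abundant, Aars had a log2 ratio of -0.29 (-0.36 to -0.22), Sars of -0.20 (-0.27 to -0.14), Eprs of -0.11 (-0.17 to -0.04) and Gars of -0.10 (-0.16 to -0.03). Sars, which charges the serine tRNA, went from 229.9 to 199.9 CPM.

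The list of neutral amino acid transporters was on balance slightly lower, with a median log2 ratio of -0.16. It also holds carriers of cationic amino acids, taurine and cystine, which are counted with the rest. Of 15 genes on the list that passed the minimum, 6 were at least 1.2-fold lower, where 9.44% of all genes were. At least 1.2-fold higher were 2, where 14.0% of all genes were. Of the 4 most abundant, Slc7a2, which carries cationic amino acids, was at -0.04 and Slc6a6, which carries taurine, at 0.02. Slc38a4 was at -0.03 and Slc7a8 at -0.20 (-0.25 to -0.14). Slc7a5 and Slc3a2, singled out after their values were seen because they form the LAT1 transporter together, were alike at -0.35 (-0.43 to -0.27) and -0.37 (-0.44 to -0.30). Slc1a4, a relative of Slc1a5 that carries serine and is counted on the serine and glycine list, was singled out in the same way and differed from it in direction, at -0.39 (-0.61 to -0.16). Slc38a1, a glutamine transporter also found after the fact, had 8 counts in control-F2 and 67 in AE-F2 islets, a log2 ratio of 2.62 (1.62 to 3.95).

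**Figure D4:**
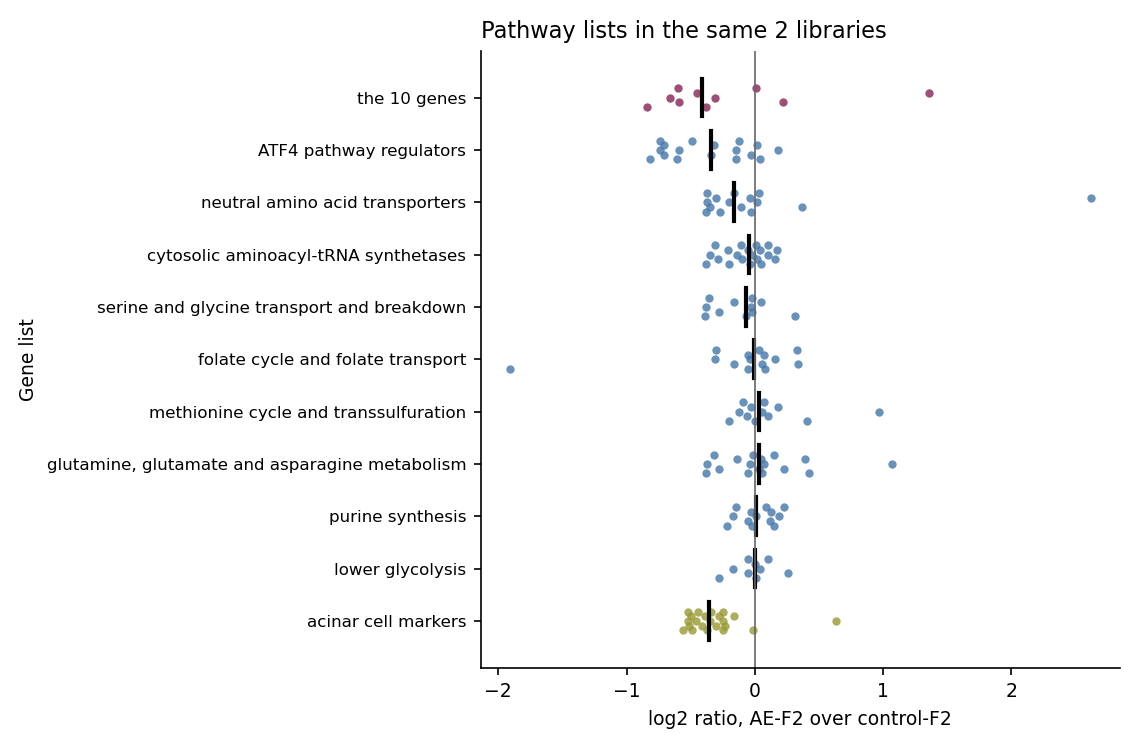
Ratios of AE-F2 over control-F2 (log2) of each gene that passed the minimum, by list, with the black bar at the list's median and points spread vertically for legibility. The medians of the 10 genes (-0.42), the ATF4 pathway regulators (-0.34) and the acinar cell markers (-0.36) lie to the left of 0, and those of folate, methionine, glutamine, purine and glycolysis genes lie close to 0.

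The rest of the folate, serine and glycine genes had medians near 0 but not all of them lay there. The shares of all genes to set beside their counts are 14.0% at least 1.2-fold higher and 9.44% at least 1.2-fold lower. Of 14 folate cycle and transport genes that passed the minimum, 2 were at least 1.2-fold higher and 3 at least 1.2-fold lower, with a median log2 ratio of -0.01. Slc25a32, the mitochondrial folate carrier, was at -0.16 (-0.30 to -0.01). Ggh, which trims folate polyglutamates, was at -0.05. Tyms, which makes thymidylate and was singled out after its value was seen, was at 0.34 (0.01 to 0.68), beside the higher proliferation list given above. Of 11 genes of serine and glycine transport and breakdown, 1 was at least 1.2-fold higher and 4 at least 1.2-fold lower, with a median of -0.07. Its most abundant members Dld (0.05), Sptlc1 (-0.02), Sptlc2 (-0.02) and Srr (-0.07) had intervals that included equality. Of the 4 lower ones, named after their values were seen, Slc1a4 is given above, and Sdsl at -0.38 (-0.96 to 0.20), Slc6a9 at -0.36 (-0.81 to 0.08) and Slc25a38 at -0.28 (-0.56 to 0.01) had intervals that reached equality. Gcsh, of the glycine cleavage system and named in the same way, was the higher one at 0.31 (0.10 to 0.53).

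Lists of genes that supply or use the pathway also had medians near 0. Among 9 lower glycolysis genes the median log2 ratio was 0.00, with 1 at least 1.2-fold higher and 1 at least 1.2-fold lower, and Gapdh (0.01), Pkm (-0.05), Aldoa (0.00) and Pgam1 (-0.05) were little different. The shares of all genes given for the folate list apply to these counts as well. Of 13 purine synthesis genes, which consume formyl-folate, none passed 1.2-fold in either direction and the median was 0.01, with Prps1 at -0.03, Impdh1 at 0.01, Gmps at 0.09 and Paics at 0.13. Of 12 methionine cycle and transsulfuration genes 2 were at least 1.2-fold higher and none at least 1.2-fold lower. One of these, Ahcy, which hydrolyses the S-adenosylhomocysteine left by methylation reactions, went from 76.2 to 101 CPM (0.41, interval 0.31 to 0.51), and Ahcyl1 (0.10), Ahcyl2 (-0.20) and Mat1a (-0.12) lay nearer to 0. Of 17 genes of glutamine, glutamate and asparagine metabolism 3 were at least 1.2-fold higher and 4 at least 1.2-fold lower, with a median of 0.03. Glul, which makes glutamine, was at 0.06 (0.02 to 0.10), Glud1 at 0.05 (-0.04 to 0.13), Gfpt1 at -0.04 and Gad1 at 0.39 (0.32 to 0.46), and Oat, which links ornithine to glutamate, had 81 and 222 counts and a log2 ratio of 1.07 (0.70 to 1.46). The 4 lower genes are named after their values were seen. Aldh18a1 and Pycr1, which make proline from glutamate, were at -0.37 (-0.45 to -0.28) and -0.28 (-0.43 to -0.13), and the alanine aminotransferases Gpt and Gpt2 at -0.38 (-0.94 to 0.17) and -0.32 (-0.60 to -0.04).

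Markers of acinar cells, the enzyme-secreting cells that surround islets and that also use this pathway, were lower in the AE-F2 library together with the serine genes. Of 28 acinar markers 26 were listed and 22 passed the minimum, of which 21 were lower, 15 by at least 1.2-fold (9.44% of all genes), with a median log2 ratio of -0.36. Amy2a5 was the exception, at 0.63, and the sum of the list went from 3275 to 2851 CPM. Prss1 had 0 counts in both libraries and the acinar factors Ptf1a and Rbpjl had 2 to 4. Of the other factors on the list, Bhlha15 had 1472 counts in control-F2 and 1635 in AE-F2 islets, and Nr5a2 had 32 and 35. All of these were singled out after their values were seen. Ctrb1 went from 356 to 281 CPM, Pnlip from 364 to 269 and Cela2a from 370 to 258. The immediate early genes, which respond to stimulation and handling, were at least 1.2-fold lower for 10 of 10 genes (9.44% of all genes), with a median of -1.05. Of the endocrine lists, β-cell genes had a median of -0.10 and α-cell genes a median of 0.13. The intervals of 8 of 10 β-cell genes lay below equality and those of 2 above it, against 1825 and 1827 of all 13627 genes. Deep counts make the intervals of β-cell genes narrow, so that ratios as small as that of Ins2 (-0.05) were among them. Gcg, which encodes glucagon, took 1.60% of the control-F2 and 2.20% of the AE-F2 counts. The part of these cell types and of the immediate early genes in the values of the 10 genes was not tested.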

How the data were processed

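Poly(A) RNA of islets from F2 males was sequenced on an Illumina instrument. The values deposited by the authors are estimated counts of each gene, not scaled for depth or length. The study's methods name HISAT2 for alignment, whereas the submitters' processing notes name Bowtie2, RSEM and DESeq2. Genome build and annotation are not given in the sources used here, so the positions of the counted genes are left out, the promoter windows carry those of the RefSeq table on GRCm38.p6, and GENCODE M21 served for names (21806 of 21899 genes matched), exon length and overlaps. Genes without a symbol held 0.053% and 0.050% of the counts.

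Estimated counts were rounded. TMM factors came from edgeR 4.0.16 in R 4.3.3, over genes averaging 10 counts or more. Intervals are 95% Clopper-Pearson intervals (scipy 1.17.1) on the share of each gene's reads that came from AE-F2. A library at or below 3 counts was taken as at the floor. CPM per kb used the union of a gene's exons, which lowers the level of genes with long rare isoforms. No model was fitted, as each group had a single library. The calculation was tested on simulated data. The members and lists were chosen with earlier results of these data known. Named genes were taken from the members, up to 4 of the most abundant of each list and those past 1.5-fold with a mean of at least 100 counts. Some genes and a promoter stretch that these rules cover are not reported here. Any other named gene is said to have been singled out after its value was seen, or is named for a promoter match, for an exon overlap or as not listed. Of the 28 acinar markers, Amy2b and Ctrc were not listed in the files. Lists for other cell types had median log2 ratios of 0.00 (δ- and PP-cells), 0.12 (ducts), -0.03 (endothelium) and -0.04 (macrophages). Alternatives were DESeq2 1.42.0 size factors, library totals with and without the 10 most abundant genes, minimum means of 1 and 100 counts, a pseudocount of 5, unrounded counts, thinning, and the removal of trends with GC content and exon length.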

Additional observations from a re-analysis of the deposited data

How the results depend on the processing

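Each of the 7 genes that were at least 1.2-fold lower kept to that side under all 9 alternatives, with log2 ratios from -0.86 to -0.82 for Phgdh, -0.50 to -0.44 for Psat1, -0.71 to -0.57 for Psph, -0.31 to -0.27 for Shmt2, -0.68 to -0.62 for Mthfd2, -0.60 to -0.58 for Aldh1l2 and -0.42 to -0.37 for Asns. Minimum means of 1 and 100 counts could not change these ratios, since they alter only which genes are kept. None of the alternatives covers differences between animals. The median of the 10 genes ran from -0.52 to -0.40. The number at least 1.2-fold higher was 0 with a minimum mean of 100 counts, because Slc1a5 and Shmt1 then did not pass, and 2 with the AE-F2 counts thinned to the control-F2 total, where Shmt1 passed the fold as well. Slc1a5 otherwise ran from 1.27 to 1.39. Over the 9 alternatives the share of all genes at least 1.2-fold lower ran from 6.41%, at a minimum mean of 100 counts, to 12.08%. The share at least 1.2-fold higher ran from 5.75% to 19.65%. No paired analysis was possible because 1 library per group was analysed, and no replicate could be left out. At this depth a difference could not be read for Shmt1, with 19 and 29 counts.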
